A study of Mus musculus with 2 samples.

Results

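The voltage-gated sodium channel alpha subunits described here are 7 genes, Scn1a, Scn3a, Scn8a, Scn9a, Scn10a, Scn11a and Scn7a, taken by their symbols from the 39098 gene symbols of the count tables. All 7 had counts in the neurons of both libraries. Trigeminal ganglion (TG) cells, which hold the bodies of the sensory neurons of the face together with their glia, were profiled by BD Rhapsody single-cell RNA-sequencing. Ganglia were taken from male mice (C57BL/6, 5 to 8 weeks old) on day 7 after an injection of 20 µL into the right whisker pad. The injection was complete Freund's adjuvant (CFA, killed mycobacteria in oil, which provokes local inflammation) for the CFA library. The control library is labelled untreated, while the study's methods describe a saline injection. There was 1 library per condition, and the sources used here do not say how many mice each library pooled. Differences between the libraries therefore could not be set against a spread between replicates, and they carry no p-value.

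A sodium channel alpha subunit is a single large protein with 4 repeated domains, which together form the sodium-selective pore and the voltage sensors that start and carry the action potential. Mammalian sensory neurons combine several of these genes, and the combination differs between fast myelinated fibres and slow unmyelinated ones. Scn1a, Scn3a, Scn8a and Scn9a encode channels that the toxin tetrodotoxin blocks at low doses, while the channels of Scn10a and Scn11a resist it. Loss of SCN9A function in people causes an inability to feel pain, and Scn10a carries much of the action potential current of nociceptors. The product of Scn7a belongs to the family by sequence but is regarded as a sensor of extracellular sodium rather than as a classical voltage-gated channel.

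The stretch that sets tetrodotoxin binding is shown for 6 members because it divides the family into sensitive and resistant genes. Each sequence is 45 bases of the coding strand of the pore loop of the first domain in the mouse genome GRCm38 (annotation GENCODE M21), 5′ to 3′, with the codon of the toxin-binding position in capitals.
Scn3a: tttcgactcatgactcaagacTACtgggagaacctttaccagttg
Scn8a: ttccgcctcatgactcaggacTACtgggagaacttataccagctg
Scn9a: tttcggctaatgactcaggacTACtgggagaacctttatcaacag
Scn10a: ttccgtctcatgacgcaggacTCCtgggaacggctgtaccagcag
Scn11a: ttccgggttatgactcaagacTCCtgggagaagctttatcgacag
Scn7a: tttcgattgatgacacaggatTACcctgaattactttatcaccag
The codon reads tyrosine in Scn3a (residue 384), Scn8a (371), Scn9a (362) and Scn7a (355), and serine in Scn10a (356) and Scn11a (358). An aromatic residue at this place goes with tight toxin binding and a serine with resistance. Each of these stretches lies inside exon 9 of its transcript. The Scn10a stretch is at chr9:119666366-119666410 and the Scn11a stretch at chr9:119805659-119805703, both on the minus strand.

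The loop of the third domain holds a lysine that is needed for sodium selectivity. It is shown for Scn7a and its neighbour Scn9a because Scn7a departs from the family there. The capitals mark the codon of that position, and both stretches run across an exon junction.
Scn9a: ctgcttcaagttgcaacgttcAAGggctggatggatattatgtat
Scn7a: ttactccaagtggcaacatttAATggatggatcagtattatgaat
The codon encodes lysine in Scn9a (residue 1404) and asparagine in Scn7a (residue 1142). The other members have lysine as well. The Scn7a codon is at chr2:66683309-66683311.

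Scn3a (chr2:65457118-65567627), Scn1a (chr2:66270778-66440840), Scn9a (chr2:66480080-66634962) and Scn7a (chr2:66673425-66784914) lie in 1 cluster on chromosome 2, all on the minus strand. Scn10a (chr9:119608456-119719322) and Scn11a (chr9:119753759-119825456) are neighbours on the minus strand of chromosome 9. Scn8a (chr15:100869858-101045938) stands alone on the plus strand. The annotation places genes on the opposite strand over parts of Scn1a, Scn3a and Scn9a, and the sources used here do not state whether counting used strand. Of these, 2 were measured here and had few counts of their own in neurons: Gm13630 over Scn1a had 13 control and 5 CFA counts, and Gm13629 over Scn9a had 12 and 4. The gene over Scn3a, Gm13595, and a further gene over Scn9a, Gm23046, were not among the counted gene symbols.

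The tables hold unique molecular identifiers (UMIs), each of which stands for 1 captured RNA molecule. After cells with under 150 genes or over 25% mitochondrial UMIs were left out, 6695 control and 3661 CFA cells remained, with 48233077 and 21658155 UMIs. A neuron had at least 100 UMIs over Tubb3, Snap25, Uchl1, Stmn2 and Syt1, which gave 729 control and 378 CFA neurons with median depths of 47348 and 38662.5 UMIs. Between the libraries 27 cell barcodes occurred in both, and leaving those cells out moved no member's ratio over all neurons beyond its interval. Neurons were then assigned to 9 classes by raw UMIs of marker genes, without any sodium channel gene. These were Mrgprd neurons (144 control and 56 CFA cells) and Mrgpra3 neurons (42 and 12), both C-fibre nociceptor types named for Mas-related receptors, and Nppb itch neurons (12 and 11). Peptidergic C neurons, with Calca and Adcyap1 but little Nefh, were split into Sstr2+ (97 and 64) and Sstr2- cells (262 and 128). The Nefh-high classes were peptidergic (8 and 5) or A neurons with little Calca (18 and 9). Trpm8 neurons (38 and 19) and C-fibre low-threshold mechanoreceptors (cLTMRs, 57 and 39) completed the set, and 51 and 35 neurons passed no gate. Values below are UMIs of a gene per 1000000 UMIs (CPM), summed over the cells of a class and library, with exact 95% Poisson intervals, and shares of cells have exact Clopper-Pearson intervals. Paired values give the control library before the CFA library. The gating markers were high in their classes, but Trpm8 neurons, with 230 and 270 CPM of Trpm8, also held 1495 and 1589 CPM of Nefh and 214 and 192 CPM of Pvalb, which mark large myelinated neurons. That class is therefore called by its gate only. These intervals cover counting error only, not differences between mice. Each molecule gives 1 UMI whatever its length, so values of different genes were set side by side without a length correction.

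Scn9a was at 269 CPM or more in every class of both libraries. In all neurons together it stood at 385 (378 to 391) and 413 (403 to 423) CPM, and 99.3% and 100% of neurons had at least 1 UMI. To compare cells at equal depth, each neuron was thinned at random to 10000 UMIs, which 723 control and 373 CFA neurons reached. The share with Scn9a was then 95% (93.2 to 96.5) and 96.0% (93.5 to 97.7). Immune cells, which should lack it, are shallower, with median depths of 2015 and 1610 UMIs. At 500 UMIs per cell 1.30% and 0.962% of immune cells had a Scn9a UMI, against 20.0% (17.2 to 23.1) and 21.2% (17.2 to 25.6) of neurons.

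Levels of Scn9a spanned only a narrow range across the classes. cLTMRs were highest at 565 (541 to 591) and 615 (582 to 650) CPM. Trpm8 neurons were lowest at 269 (248 to 293) and 276 (242 to 313) CPM. The cLTMR level was 2.10-fold (1.91 to 2.31) and 2.23-fold (1.94 to 2.58) that of Trpm8 neurons. In between, Nppb itch neurons (428 and 416 CPM) and Mrgprd neurons (416 and 401 CPM) lay within each other's intervals, and so did Mrgpra3 neurons (294 and 312 CPM) and Sstr2+ peptidergic neurons (338 and 314 CPM) in the CFA library. Single cells varied more than classes did: among control Mrgprd neurons the lowest was at 98.3, the median at 395 and the highest at 1412 CPM.

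Scn11a and Scn10a, the resistant pair, were at their highest in Mrgprd and Mrgpra3 neurons. Scn11a reached 945 (926 to 963) and 863 (834 to 893) CPM in Mrgprd neurons, the highest level of any member in a neuron class of the control library, exceeded in the CFA library by Scn7a in Trpm8 neurons alone. Mrgpra3 neurons followed at 875 (845 to 907) and 780 (721 to 844) CPM. Every neuron of both classes had Scn11a, and the lowest Mrgprd neuron was still at 391 and 310 CPM.

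Below them the order of Scn11a was the same in both libraries across all 9 classes. Nppb itch neurons had 452 and 444 CPM, Sstr2+ peptidergic neurons 404 and 388 CPM, and Sstr2- peptidergic neurons 283 and 290 CPM. Sstr2+ cells thus had 1.43-fold (1.34 to 1.52) and 1.34-fold (1.23 to 1.46) the level of Sstr2- cells. cLTMRs stood at 248 and 216 CPM, and the Nefh-high peptidergic class at 239 CPM in 8 control cells and 112 CPM in 5 CFA cells. Nefh-high A neurons (27.7 and 38.9 CPM) and Trpm8 neurons (19.7 and 7.04 CPM) were far lower. Mrgprd neurons had 48.0-fold (35.3 to 66.9) and 123-fold (56.3 to 334) the Scn11a level of Trpm8 neurons.

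Scn10a had the same upper and lower ends but a flatter middle. Mrgpra3 neurons had 587 (562 to 613) and 574 (523 to 628) CPM. Mrgprd neurons had 586 (572 to 600) and 469 (447 to 491) CPM, so the intervals of these classes overlapped in the control library and not in the CFA library. Nppb itch neurons followed at 441 (387 to 500) and 318 (272 to 369) CPM.

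Sstr2+ peptidergic neurons (199 and 212 CPM), Sstr2- peptidergic neurons (182 and 185 CPM) and cLTMRs (185 and 154 CPM) held a middle level of Scn10a. Mrgprd neurons had 3.23-fold (3.06 to 3.40) and 2.54-fold (2.34 to 2.76) the level of Sstr2- peptidergic neurons. Nefh-high peptidergic neurons had 172 CPM in the control and 377 CPM in the CFA library, where 1 of the 5 cells reached 699 CPM. Nefh-high A neurons had 38.3 and 41.5 CPM. Trpm8 neurons had 11 (7 to 16.6) and 4.69 (1.28 to 12.0) CPM, from 23 and 4 UMIs, and no thinned CFA Trpm8 neuron of 19 had a Scn10a UMI, which allows a share of up to 17.6%. Scn10a RNA was thus found in every C-fibre nociceptor class and in cLTMRs, and little of it in the Trpm8 gate. At 10000 UMIs 86.2% and 85.0% of all neurons had Scn11a and 76.6% and 70.0% had Scn10a, and at 500 UMIs 19.8% and 16.4% had Scn11a, against 1.30% and 0.962% of immune cells.

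**Figure D1:**
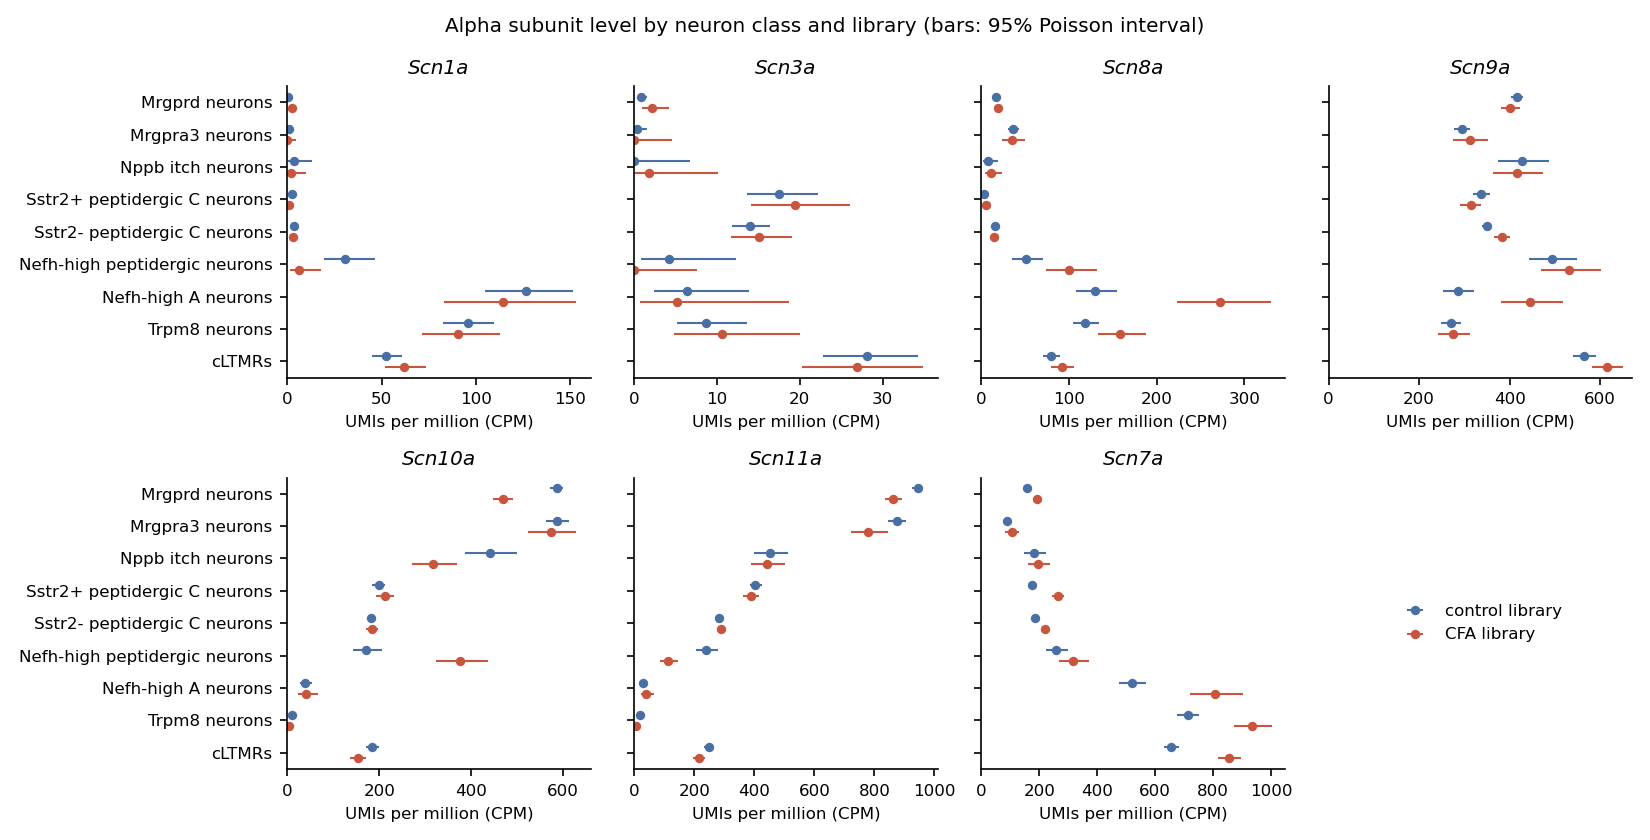
Level of each alpha subunit gene (CPM, linear axis) in the 9 neuron classes, with 1 point per library and bars for the exact 95% Poisson interval. Scn10a and Scn11a peak in Mrgprd and Mrgpra3 neurons, Scn1a and Scn8a in Nefh-high A and Trpm8 neurons, and Scn7a in Trpm8 neurons, cLTMRs and Nefh-high A neurons, while Scn9a stays between 269 and 615 CPM in every class.

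Scn1a and Scn8a, which carry fast currents at the nodes and initial segments of myelinated axons, had the reverse profile. Scn1a was highest in Nefh-high A neurons, at 127 (105 to 151) and 114 (82.9 to 153) CPM, and every one of their 18 and 9 cells had it. Trpm8 neurons had 95.6 (82.8 to 110) and 90.3 (71.3 to 113) CPM, with intervals that overlapped those of A neurons, and cLTMRs had 52.6 (45.2 to 60.7) and 62.0 (51.7 to 73.6) CPM. cLTMRs were thus an unmyelinated class with Scn1a, and 40.4% and 41.0% of them had it at 10000 UMIs.

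Scn1a was low elsewhere, with 30.8 and 6.21 CPM in Nefh-high peptidergic neurons and under 4 CPM in the remaining classes. Mrgprd neurons had 5 control and 10 CFA UMIs in all, or 0.463 (0.15 to 1.08) and 2.66 (1.28 to 4.89) CPM. Mrgpra3 neurons had 3 UMIs in the control and none in the CFA library, where a count of 0 still allows 3 UMIs. The level of Trpm8 neurons was 206-fold (87.0 to 643) that of Mrgprd neurons in the control and 34.0-fold (17.5 to 73.7) in the CFA library. The 2 peptidergic C classes and Nppb itch neurons had between 0.881 and 3.67 CPM, and did not differ from one another beyond their intervals.

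Scn8a was less restricted than Scn1a. Nefh-high A neurons had 130 (108 to 155) and 272 (223 to 330) CPM. The CFA value leaned on 1 neuron at 1592 CPM, while the median of the 9 cells was 163 CPM against 105 CPM in the control. Trpm8 neurons had 119 (104 to 134) and 158 (133 to 187) CPM, and cLTMRs 79.5 (70.5 to 89.5) and 91.7 (79.2 to 106) CPM. Among the C-fibre nociceptors Mrgpra3 neurons had 36.0 and 34.6 CPM and Mrgprd neurons 16.3 and 18.6 CPM.

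Within the peptidergic C neurons the Scn8a level differed between the Sstr2 subsets. Sstr2- cells had 15.9 (13.6 to 18.5) and 14.8 (11.5 to 18.8) CPM, and Sstr2+ cells 3.40 (1.81 to 5.81) and 5.28 (2.73 to 9.23) CPM. The Sstr2- level was 4.68-fold (2.66 to 8.97) the Sstr2+ level in the control and 2.80-fold (1.50 to 5.70) in the CFA library. At equal depth 12.3% and 12.8% of Sstr2- cells had a Scn8a UMI, against 1.03% and 1.56% of Sstr2+ cells. Most cells of both subsets thus had none at that depth. Whether a minority of Sstr2- cells carried the difference was not tested. Sstr2+ cells had more Scn11a and less Scn8a than Sstr2- cells in both libraries.

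Scn3a, best known from embryonic neurons and from adult neurons after nerve injury, was the scarcest member, at 9.79 (8.82 to 10.8) and 12.2 (10.5 to 14.0) CPM over all neurons. It was present in a class pattern of its own. cLTMRs had 28.1 (22.8 to 34.3) and 26.9 (20.3 to 34.9) CPM, and 29.8% and 25.6% of them had it at 10000 UMIs. Sstr2+ peptidergic neurons had 17.5 and 19.4 CPM and Sstr2- peptidergic neurons 14.0 and 15 CPM, whose intervals overlapped. Mrgprd neurons had 0.834 and 2.13 CPM, so cLTMRs held 33.8-fold (17.1 to 76.0) and 12.6-fold (6 to 30.7) their level. Mrgpra3 and Nppb itch neurons had 1 UMI or none in each library. Trpm8 neurons had 8.65 and 10.6 CPM and Nefh-high A neurons 6.38 and 5.19 CPM. Scn3a was thus highest in cLTMRs and the peptidergic C neurons and lower in Trpm8 and Nefh-high A neurons. It was near 0 in the Mrgpr and Nppb classes, where Scn10a and Scn11a were highest.

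Scn7a was high in the same classes as Scn1a and Scn8a but was found in every class. Trpm8 neurons had 712 (677 to 750) and 934 (870 to 1001) CPM. cLTMRs had 655 (628 to 683) and 855 (815 to 895) CPM, and Nefh-high A neurons 520 (475 to 568) and 807 (720 to 902) CPM. Mrgpra3 neurons were lowest, at 88.7 (79.2 to 99.1) and 104 (82.8 to 129) CPM.

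The other classes had Scn7a between 157 and 259 CPM in the control and between 192 and 317 CPM in the CFA library, and most neighbours in that order overlapped. Trpm8 neurons had 4.54-fold (4.23 to 4.87) and 4.86-fold (4.39 to 5.38) the level of Mrgprd neurons. At 10000 UMIs all 57 and 39 cLTMRs had Scn7a, and 73.6% and 89.3% of Mrgprd neurons. Across the 9 classes the rank correlation between the libraries was 0.95 for Scn7a, 0.98 for Scn8a, 0.90 for Scn3a, 0.87 for Scn1a, 0.82 for Scn10a and 0.75 for Scn9a. These are descriptions over classes that come from the same library and share its depth.

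The make-up of each class shows the same split in shares of all alpha subunit UMIs. In control Mrgprd neurons 44.5% were Scn11a, 27.6% Scn10a, 19.6% Scn9a and 7.40% Scn7a. In control Sstr2- peptidergic neurons 33.9% were Scn9a, 27.4% Scn11a, 17.9% Scn7a and 17.6% Scn10a. In control Trpm8 neurons 57.7% were Scn7a, 21.8% Scn9a, 9.60% Scn8a and 7.74% Scn1a, with 1.59% Scn11a and 0.894% Scn10a. cLTMRs mixed both patterns, with 36.1% Scn7a, 31.2% Scn9a, 13.7% Scn11a, 10.2% Scn10a, 4.39% Scn8a and 2.90% Scn1a.

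**Figure D2:**
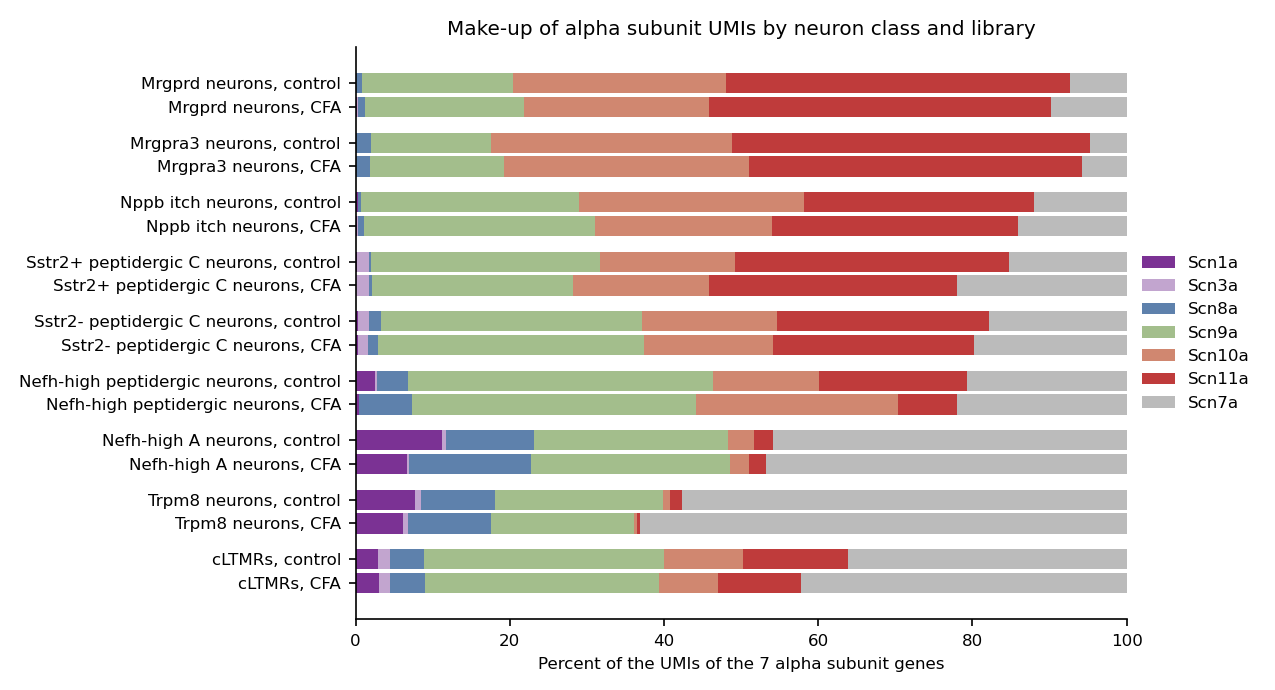
Stacked bars of the share of each gene among the UMIs of the 7 alpha subunit genes (percent, 0 to 100), by neuron class and library. Scn10a and Scn11a take most of the bar in Mrgprd and Mrgpra3 neurons, and Scn7a takes 57.7% and 63.1% in control and CFA Trpm8 neurons.

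The share of the resistant genes Scn10a and Scn11a among the 6 members without Scn7a gives 1 number per neuron for this split. It was 77.9% (77.3 to 78.5) and 75.8% (74.8 to 76.9) in control and CFA Mrgprd neurons and 81.5% and 79.6% in Mrgpra3 neurons. It was 67.0% and 63.9% in Nppb itch neurons, 62.5% and 63.9% in Sstr2+ and 54.8% and 53.3% in Sstr2- peptidergic neurons. cLTMRs had 37.4% (35.9 to 38.9) and 31.7% (29.9 to 33.6), Nefh-high A neurons 10.7% and 8.76%, and Trpm8 neurons 5.88% and 2.15%.

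Single neurons with at least 10 such UMIs, 711 control and 359 CFA cells, covered the whole range. Every control Mrgprd neuron lay between 55.2% and 94.0%, and 35 of 37 control and 17 of 17 CFA Trpm8 neurons lay under 25%. cLTMRs sat between the groups, with a median of 37.7% and 32.1%. The Sstr2- peptidergic gate spanned the widest range of the 9 classes: its control neurons ran from 0 to 94.7%, and 16 of 251 control and 7 of 121 CFA neurons lay under 25%, against none of 96 and 64 Sstr2+ neurons.

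**Figure D3:**
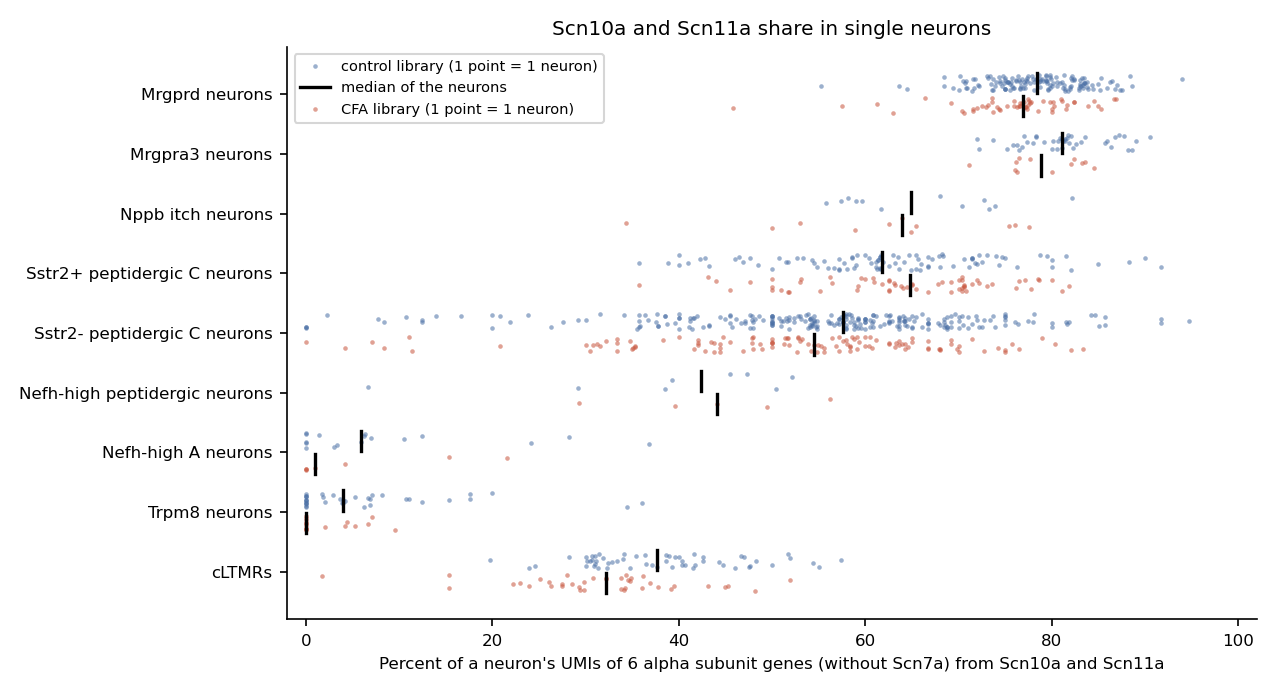
Share of Scn10a and Scn11a among the UMIs of the 6 alpha subunit genes without Scn7a (percent), in single neurons with at least 10 such UMIs, for each library. Counted in bins of 10 points over all such neurons, with or without a class, 57 control neurons fall in the lowest bin and 157 in that from 70 to 80. Of the CFA neurons 39 and 77 do.

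Coexpression was counted in neurons thinned to 10000 UMIs. A median of 4 of the 7 genes was detected per neuron in each library, with a range from 1 to 7, and cLTMRs had a median of 5. Scn10a and Scn11a occurred together in 72.8% (69.3 to 76.0) of control and 65.7% (60.6 to 70.5) of CFA neurons, where the product of their separate shares is 66.0% and 59.5%. Of control neurons with at least 2 Scn10a UMIs, 97.2% had Scn11a, against 70.7% of the others.

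Scn1a and Scn8a were found together in 5.81% (4.22 to 7.77) of control and 9.38% (6.62 to 12.8) of CFA neurons, against products of 2.55% and 3.32%. Of the 20 control and 22 CFA neurons with at least 2 Scn1a UMIs, 60.0% and 81.8% had Scn8a and all had Scn7a, while 25% and 36.4% had Scn10a. Scn1a and Scn10a met in 5.67% and 5.63% of neurons, below their products of 9.54% and 10.3%. Scn1a and Scn11a met in 6.22% and 7.24%, below 10.7% and 12.5%. So over all neurons Scn1a went with Scn8a and Scn7a and away from Scn10a and Scn11a.

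Within a class these departures were small. In control Trpm8 neurons Scn1a and Scn8a met in 36.8% of 38 cells, where the product is 38.1%, and in control cLTMRs in 21.1% of 57 cells, where it is 22.7%. In control Sstr2- peptidergic neurons Scn10a and Scn11a met in 65.9%, where the product is 62.7%. The joint shares rest on thinned counts and on cells that share a library, so they are descriptions without a test.

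The libraries were compared by dividing CFA by control CPM on the log2 scale, with a conditional exact interval for counting error. Scn7a stood at 260 (255 to 265) and 369 (360 to 378) CPM over all neurons. It was higher in CFA neurons, with a log2 ratio of 0.504 (0.46 to 0.55). Scn10a stood at 330 and 263 CPM, with a ratio of -0.33 (-0.38 to -0.28), and Scn11a at 519 and 425 CPM, with -0.29 (-0.33 to -0.25). Scn7a was thus the 1 member of 7 with a log2 ratio above 0.5 in all neurons, and none was below -0.5. Of the 14452 genes with at least 50 UMIs there, 6.42% were past 0.5 in the higher and 6.01% in the lower direction.

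The other members were higher in the CFA library over all neurons. The log2 ratio of Scn8a, at 33.0 and 44.1 CPM, was 0.42 (0.28 to 0.55). Scn1a had 0.27 (0.08 to 0.46), Scn3a 0.31 (0.06 to 0.57) and Scn9a 0.10 (0.06 to 0.14). The ratio of Scn1a was 0.053 at equal depth per cell and that of Scn9a 0.039. Thinning discards most counts, which adds to the counting error of both values. Among the neuron classes with at least 50 UMIs of the gene, Scn1a was higher in 1 and lower in 2. Its log2 ratios there ran from -0.15 to 0.24. Scn3a was higher in 2 such classes and lower in 1, from -0.07 to 0.15. For both genes the ratio over all neurons thus lay above every one of these class ratios. Classes were not equally represented: Mrgprd neurons, with the most Scn11a, gave 28.5% of control and 22.8% of CFA neuron UMIs, and Mrgpra3 neurons 9.31% and 4.90%. With the classes weighted alike in both libraries, the log2 ratio was -0.17 for Scn10a, -0.12 for Scn11a and 0.38 for Scn7a.

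Of the members, Scn7a and Scn9a alone had at least 50 UMIs in all 9 classes. Scn9a was higher in 6 of them and lower in 3, while Scn7a had the same direction throughout. The log2 ratio of Scn7a was above 0 in all 9 classes, from 0.10 in Nppb itch neurons to 0.63 in Nefh-high A neurons. Of the 3463 genes with at least 50 UMIs in every class, 7.88% were higher in all 9 classes and 8.26% lower in all 9. In Sstr2+ peptidergic neurons Scn7a stood at 173 and 264 CPM, and the log2 ratio was 0.61 (0.45 to 0.77). Sstr2- peptidergic neurons had 0.25 (0.14 to 0.36), cLTMRs 0.38 (0.29 to 0.47), Trpm8 neurons 0.39 (0.26 to 0.52) and Mrgprd neurons 0.29 (0.16 to 0.42). In Mrgpra3 neurons (0.23, from -0.14 to 0.58), Nppb itch neurons (0.10, from -0.30 to 0.51) and Nefh-high peptidergic neurons (0.29, from -0.03 to 0.61) the interval included 0. At equal depth per cell the ratio was -0.55 in Mrgpra3 and 0.77 in Nppb itch neurons. With the upper quartile by glial marker share left out, it was -0.02 in both classes, so the direction was not the same under every setting there.

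Schwann cells also carry Scn7a, so glial RNA in the neuron profiles was measured. The 7 myelinating Schwann markers summed to 123 CPM in control and 64.9 CPM in CFA neurons, and the 5 satellite glia markers to 272 and 243 CPM, with all of them detected in both libraries. The markers of the non-myelinating Schwann gate, several of which neurons express, summed to 1309 and 1287 CPM. The glial marker share counts only the myelinating Schwann and satellite glia markers. With the upper quartile of each class by that share left out, the log2 ratio of Scn7a over all neurons was 0.48. That setting does not select neurons by RNA of non-myelinating Schwann cells, the gated type with the most Scn7a. Whether such RNA added to the ratio was not tested. Neurons were shallower in the CFA library (median 38662.5 against 47348 UMIs), and at equal depth per cell the ratio was 0.54.

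Scn10a and Scn11a were lower in CFA Mrgprd neurons and cLTMRs, and in peptidergic C neurons their intervals included 0. In Mrgpra3 neurons, with 42 and 12 cells, Scn10a had a log2 ratio of -0.03 (-0.18 to 0.11) and Scn11a of -0.17 (-0.29 to -0.04). In Mrgprd neurons the log2 ratio was -0.32 (-0.40 to -0.25) for Scn10a and -0.13 (-0.19 to -0.07) for Scn11a. The 144 control Mrgprd neurons ran from 208 to 1926 CPM of Scn10a with a median of 577, and the 56 CFA neurons from 178 to 695 CPM with a median of 432, so the libraries overlapped widely. In cLTMRs the ratios were -0.27 (-0.46 to -0.07) and -0.20 (-0.36 to -0.03). In Sstr2+ peptidergic neurons they were 0.10 (-0.07 to 0.26) and -0.06 (-0.18 to 0.06), and in Sstr2- peptidergic neurons 0.02 (-0.10 to 0.14) and 0.04 (-0.06 to 0.13). In Nppb itch neurons, with 12 and 11 cells, Scn10a had -0.47 (-0.76 to -0.19). Whether the classes differ in this was not tested. No member with 50 UMIs passed a log2 ratio of 0.5 in Mrgprd neurons (0 of 5), where 4.38% of 10754 genes were past it upward and 6.33% downward.

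In Sstr2+ peptidergic neurons 1 of 5 members passed 0.5, Scn7a, against 6.84% of genes upward and 7.64% downward. In Sstr2- peptidergic neurons it was 0 of 6, against 5.11% and 7.16%. In Trpm8 neurons it was 0 of 4, against 5.34% and 10.2%, with Scn8a nearest at 0.42 (0.10 to 0.73). In cLTMRs it was 0 of 7, against 5.67% and 7.46%. Scn9a had log2 ratios between -0.10 and 0.13 in every class but the Nefh-high A neurons.

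The Nefh-high classes held 18 and 9 or 8 and 5 cells, too few for a share of genes to be read. In Nefh-high A neurons the log2 ratio was 1.07 for Scn8a, 0.64 for Scn9a and 0.63 for Scn7a. With cells of at least 300 genes and at most 10% mitochondrial UMIs, the value of Scn8a there was 0.39. In Nefh-high peptidergic neurons it was 1.13 for Scn10a, 0.98 for Scn8a and -1.10 for Scn11a, and the Scn11a value turned to 0.39 at equal depth per cell.

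**Figure D4:**
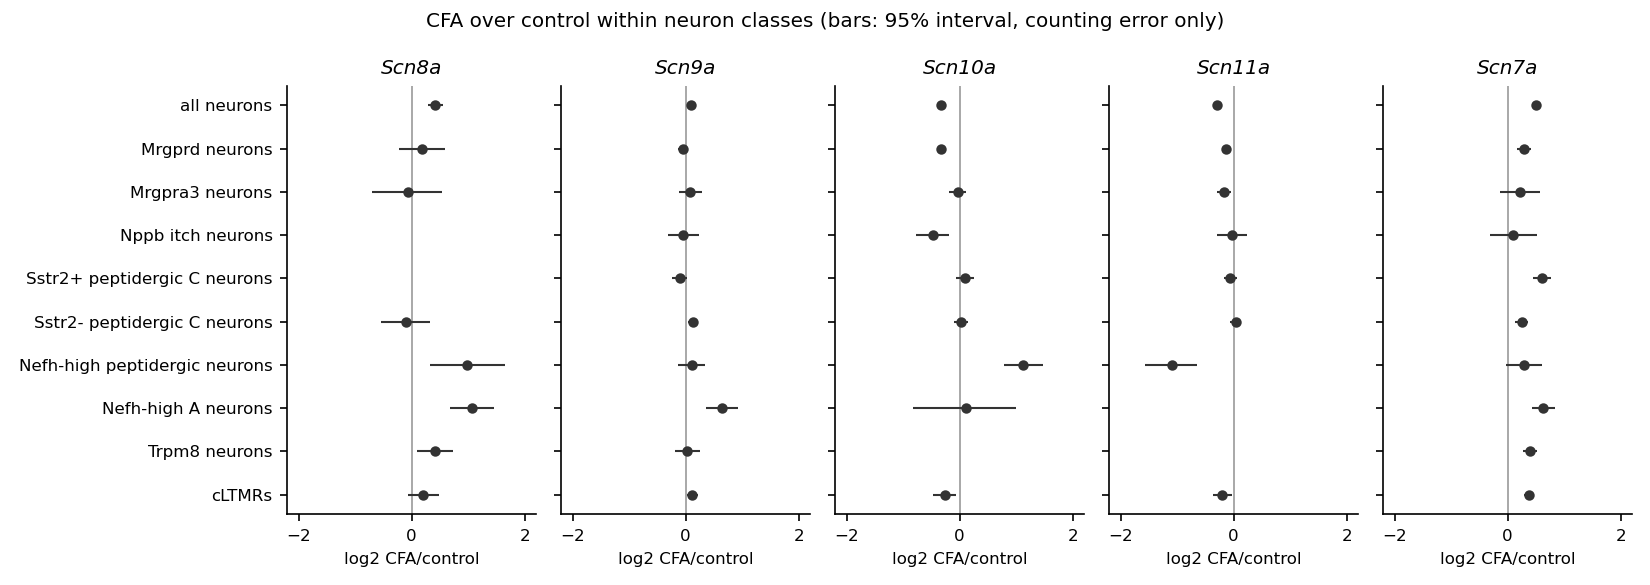
Log2 ratio of CFA to control CPM for Scn8a, Scn9a, Scn10a, Scn11a and Scn7a, over all neurons and in the neuron classes. Points are drawn where the gene has at least 50 UMIs. Bars show the 95% conditional exact interval, which covers counting error only. Scn7a lies above 0 in all 9 classes, and Scn10a lies below 0 in Mrgprd neurons and cLTMRs.

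Outside neurons Scn7a had the highest level of the members, in non-myelinating Schwann cells. Neurons held 93.2% of control and 95.9% of CFA Scn9a UMIs, 93.1% and 93.8% of Scn10a and 94.5% and 95.3% of Scn11a. They held 94.3% and 93.9% of Scn1a, 87.9% and 93.1% of Scn3a and 87.2% and 88.8% of Scn8a, but 74.9% and 79.0% of Scn7a. The remainder is not all from non-neuronal types. It includes 132 control and 55 CFA cells with at least 20 but under 100 neuron marker UMIs, which were in neither group. Their neuron marker level was 7127 and 7144 CPM. It also includes 151 and 87 other cells that passed 2 gates. Of the UMIs of all genes in kept cells, neurons held 37894944 of 48233077 in the control and 16515926 of 21658155 in the CFA library. The Scn7a shares were close to those of all genes. Non-myelinating Schwann cells, which bundle thin unmyelinated axons and are known for Scn7a, were gated on L1cam, Chl1, Gfra3, Ncam1, Csmd1 and Cdh2 without using Scn7a. Their 212 control cells had 3387 CPM (3183 to 3602) and their 106 CFA cells 2743 CPM (2492 to 3013). That was 4.75-fold (4.39 to 5.15) and 2.94-fold (2.61 to 3.31) the level of Trpm8 neurons. Most of these cells had it: 69.3% and 55.7% at 500 UMIs per cell, against 1.87% and 2.52% of myelinating Schwann cells.

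Neurons also express markers of this gate, and other members were counted in it. Scn9a stood there at 196 and 69.2 CPM and Scn11a at 203 and 107 CPM. In its cells with no UMI of the 5 neuron markers, Scn9a was at 29.5 and 27.5 CPM, while Scn7a was at 4399 and 4283 CPM. The log2 ratio of Scn7a between the libraries was -0.30 (-0.47 to -0.14) in the whole gate and -0.04 in those cells. Of the 3 members with 50 UMIs there, Scn9a and Scn11a were past 0.5 in the lower direction, as were 21.6% of the 1876 genes, while 18% were past it upward. Of all cells that passed no gate, 407 of 1171 control and 178 of 658 CFA cells had Scn7a, at 1191 and 1170 CPM, so cells with Scn7a were also left outside the gate.

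Fibroblasts had Scn7a at 140 (118 to 165) and 171 (136 to 211) CPM, from 88 of 490 control and 43 of 278 CFA cells. That was 9.07-fold (4.06 to 25.1) and 4.42-fold (2.22 to 10) the level of endothelial cells. Myelinating Schwann cells (63.5 and 64.8 CPM), satellite glia (29.6 and 51.8 CPM) and immune cells (49.6 and 37.0 CPM) were lower. Erythroid cells, which should lack it, had 1 UMI in 29 control cells but 24 UMIs in 10 of 66 CFA cells, or 265 CPM (170 to 395), at a median depth of 1134 UMIs. Scn9a in the same CFA cells had 2 UMIs. In the CFA library the erythroid Scn7a level was above that of fibroblasts, with overlapping intervals. Whether RNA from other cells made up the fibroblast counts was not tested.

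**Figure D5:**
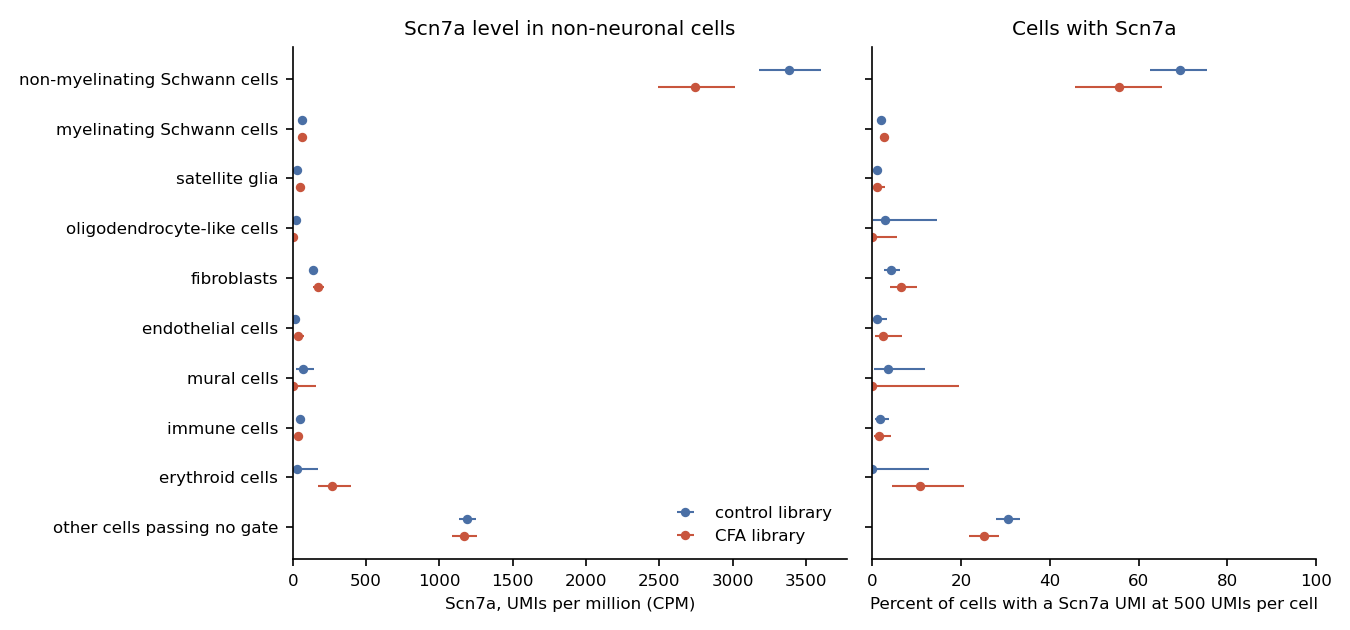
Scn7a in non-neuronal cells by library. The left panel shows the level in CPM with the 95% Poisson interval and the right panel the percent of cells with a Scn7a UMI at 500 UMIs per cell with its exact interval. Non-myelinating Schwann cells stand at 3387 and 2743 CPM, far above the gated types beside them.

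The other members were lower in each gated non-neuronal type than in all neurons, except Scn3a in mural cells and the non-myelinating Schwann gate. Scn9a stood between 0 and 34 CPM in myelinating Schwann cells, satellite glia, fibroblasts, endothelial, mural and immune cells, where neurons had 385 and 413 CPM. Members were also set against UMIs of the neuron markers, of which neurons had at least 100 and the other gated types under 20. The gates thus hold this divisor low outside neurons, so a ratio above that of neurons does not show expression there, which was not tested. Per 100 UMIs of the neuron markers, control neurons had 3.32 Scn9a UMIs, control satellite glia 4.18 and control immune cells 3.61, and the intervals of the latter types include the neuronal ratio. Control myelinating Schwann cells had 4.44 (3.60 to 5.42), above control neurons, and CFA fibroblasts 9.52 (4.57 to 17.5), above the 3.69 of CFA neurons. The non-myelinating Schwann gate had 16.1 (12.3 to 20.8) in the control library, also above neurons. In the CFA library it had 6.51 (3.25 to 11.6), an interval that includes the neuronal ratio. For Scn8a this ratio was higher in satellite glia, the cells that wrap neuron bodies. It had 3.60 (2.53 to 4.96) UMIs per 100 neuron marker UMIs in control and 11.2 (6.63 to 17.7) in CFA satellite glia, against 0.286 and 0.394 in neurons, and myelinating Schwann cells had 1.28 (0.852 to 1.85) and 2.06 (1.03 to 3.68). In satellite glia Scn8a stood at 18.6 and 25.9 CPM, and at 22.1 and 23.6 in satellite glia with no neuron marker UMI. Scn3a had 8 UMIs in 5 of 58 control and 1 UMI in 17 CFA mural cells, the contractile cells of small vessels, or 90.1 (38.9 to 178) and 43.0 (1.09 to 240) CPM. The control value lay above the Scn3a level over all control neurons. In the non-myelinating Schwann gate Scn3a had 3 UMIs in 1 control cell and 6 UMIs in 2 CFA cells.

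The genes that work with the alpha subunits were taken from a list of 20: other alpha subunits, beta subunits, fibroblast growth factor homologous factors, scaffold and trafficking proteins and the sodium pump. Further alpha subunits were low. Scn2a had 17.2 and 21.7 CPM over all neurons and stood at 25.6 and 27.7 CPM in Sstr2+ peptidergic neurons and at 19.2 and 29.8 CPM in cLTMRs. Scn4a had 42 and 17 UMIs in all neurons.

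Beta subunits, single-pass proteins that tune gating and surface level, also differed between the classes. Scn4b followed Scn1a and Scn8a, with 634 and 507 CPM in Trpm8 neurons, 323 and 324 CPM in Nefh-high A neurons, 173 and 203 CPM in cLTMRs and under 2 CPM in Sstr2+ peptidergic neurons. Scn3b, in contrast, was highest in Mrgpra3 neurons (223 and 247 CPM) and Scn2b was at 171 and 200 CPM there.

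Fgf13, which binds the tail of the alpha subunits and sets their availability, was the most abundant partner at 1452 CPM in each library. It was lowest in cLTMRs (450 and 436 CPM) and Nefh-high A neurons (509 and 446 CPM) and was at 1989 and 2150 CPM in Sstr2+ peptidergic neurons. Fgf12 was highest in cLTMRs in the control at 548 CPM and had 532 CPM there in the CFA library, and Fgf11 had 27.9 and 28.2 CPM in Trpm8 neurons and under 1 CPM in Mrgprd neurons. The pump gene Atp1b1, whose product helps restore the gradient, also split by class. It had 4794 and 5746 CPM in Trpm8 neurons but 90.1 and 103 CPM in Mrgpra3 neurons.

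Between the libraries 1 of the 19 list genes with 50 UMIs was past a log2 ratio of 0.5 over all neurons, Fgf11 at 0.56 (0.15 to 0.96), and none was below -0.5. The median of the list was 0.19, against 0.27 for the 7 members and about 0 for all genes. Like Scn7a, the list genes Ank2, Ank3 and Dpysl2 were higher in the CFA library in all 9 classes, with Ank2 from 0.30 to 1.45. Ank2 and Ank3 encode ankyrins, which anchor sodium channels at the axon membrane.

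The genes whose pattern was most like each member were ranked by Pearson's r of log2(CPM + 1) over 24 profiles, 12 classes and cell types with at least 20 cells in each of the 2 libraries, among 10034 genes. Nefh-high A, Nefh-high peptidergic, Trpm8, Mrgpra3 and Nppb itch neurons and mural cells were not among these classes. For Scn9a the closest were Disp2 (0.98), Nefl (0.97) and Syt1 (0.97), for Scn10a Ret (0.96), Gnal (0.96) and Vgf (0.95), and for Scn11a Osbpl3 (0.98), Kcnb2 (0.96) and Bsn (0.94). Ret and Nefl are a growth factor receptor and a neurofilament chain that sensory neurons are known for. For Scn3a they were Lnx1 (0.93), Gabra3 (0.91) and Slitrk3 (0.90), for Scn8a Scrn1 (0.83), Sv2c (0.83) and Ehd3 (0.78), and for Scn1a Slc17a8 (0.80), Ighg2c (0.78) and Cckar (0.75). Scn1a itself had fewer than the 500 UMIs over these profiles that were asked of the compared genes. For Scn7a they were Kcnj12 (0.86), Meg3 (0.85) and Snhg11 (0.83). The profiles share their libraries, and neurons were deeper than other cells in both. Syt1 was compared although it is 1 of the 5 genes that gate neurons, so its contrast between neurons and other cells was set by the gate.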

How the data were processed

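UMI counts per gene and cell were analysed as deposited, 1 matrix per library, with no normalization by the authors. The submitters' processing notes name fastp and GRCm38; the program that counted UMIs and its annotation are not given in the sources used here. Members, gene lists and gate thresholds were chosen with earlier results of these data known. Cells needed 150 genes and at most 25% mitochondrial counts, giving 6695 control and 3661 CFA cells with 48233077 and 21658155 UMIs. Gates used raw marker UMIs and no sodium channel gene. Non-neuronal cells had under 20 UMIs of the neuron markers. No doublet caller was run; no neuron passed 2 of the first marker gates, and other cells that passed 2 gates were left out of the gated types. UMIs were summed per class and library and divided by the class total. With 1 library per condition no test was run. Intervals are exact (Poisson, Clopper-Pearson, conditional binomial, 95%) and cover counting error only, and a count of 0 allows 3 UMIs. Cells were thinned to 10000 UMIs (neurons) or 500 (others) for shares. Library ratios were read for genes with at least 50 UMIs. Genes named were the 7 members, the 20 list genes and, for each member, the 3 genes most like it; some of these items are not reported here. Alternatives were other filters, gates, weights and thinning depths. Calculations were tested on simulated data and used Python 3.11.15, numpy 2.4.6, scipy 1.17.1, pandas 2.3.3, matplotlib 3.10.9 and biopython 1.88.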

Additional observations from a re-analysis of the deposited data

Results flagged for a closer look

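For 3 members the counting interval of the ratio lay above 0 in 1 class or cell type and below 0 in another. All values are log2 CFA over control, the highest and the lowest such value is given, and the difference between them was not tested. Scn9a stood at 0.64 in Nefh-high A neurons (18 and 9 cells) and at -1.50 in the non-myelinating Schwann gate, where it rested on 59 and 11 UMIs. Scn10a stood at 1.13 in Nefh-high peptidergic neurons (8 and 5 cells) and at -0.47 in Nppb itch neurons (12 and 11 cells). Scn7a stood at 0.80 in satellite glia (59 and 36 UMIs) and at -0.30 in the non-myelinating Schwann gate (1019 and 436 UMIs).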

How the results depend on the processing

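No paired analysis was possible because each condition had 1 library, and no library could be left out for the same reason. The log2 ratios of CFA to control over all neurons depended on the setting as follows. At equal depth per cell they were 0.053 for Scn1a, 0.039 for Scn9a and -0.35 for Scn11a. With the upper quartile of each class by glial marker share left out, Scn1a was at 0.062. With every cell weighted equally, Scn10a was at -0.39 and Scn7a at 0.56. With the same class weights in both libraries they were -0.17 for Scn10a, -0.12 for Scn11a and 0.38 for Scn7a. The share of neurons with both Scn10a and Scn11a was 53.9% and 45.0% at 5000 UMIs, and 88.5% and 82.8% without thinning, so it follows depth. Of the log2 ratios under alternatives, 547 stayed within the interval of the reported value, 50 moved beyond it and 4 changed the sign of a ratio whose interval excluded 0, all of Scn11a. Of the others, 31 changed the sign of a ratio whose interval included 0, among them Scn7a in Mrgpra3 neurons. The 4 were 0.39 in Nefh-high peptidergic neurons at equal depth per cell and, in the non-myelinating Schwann gate, 0.060 under the stricter cell filter, 0.079 without a mitochondrial limit and 0.49 in cells with no neuron marker UMI. The last setting, and that without the 27 shared barcodes, were chosen after seeing the data. The cause was not tested. Thinning to equal depth moved 24 log2 ratios beyond their interval, and weighting every cell equally moved 5. Thinning discards most counts, so its values carry more counting error. The class with the highest level was the same in both libraries under all 10 settings for Scn1a and Scn8a (Nefh-high A neurons), Scn9a (cLTMRs) and Scn11a (Mrgprd neurons). The 10 include the main setting and that of cells with no neuron marker UMI, which leaves the neuron classes as they are. For Scn10a it was Mrgpra3 neurons under 5 and Mrgprd neurons under 5 in the control library, with both of those settings among the former 5. Small classes and shallow glia limit what these counts can show.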

Other observations

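Some partner genes had levels in non-neuronal cells. Scn3b, a beta subunit, stood at 83.9 and 94.9 CPM in satellite glia of the control and CFA libraries, close to the 108 and 104 CPM of all neurons, while myelinating Schwann cells had 10.1 and 6.17 CPM. Scn4b stood at 282 and 258 CPM in mural cells, beside 78.4 and 79.2 CPM in all neurons, and was under 14 CPM in the other gated non-neuronal types. Ank3, which anchors channels at the node, stood at 984 and 812 CPM in the non-myelinating Schwann gate and at 266 and 302 CPM in all neurons.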
